A study of Mus musculus with 1 sample.

Results

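The STAT transcription factor genes were read in RNA of c-kit+ BM cells from Ctrl mice. The 6 members analysed here, *Stat2*, *Stat3*, *Stat4*, *Stat5a*, *Stat5b* and *Stat6*, were taken by gene symbol and matched to Ensembl identifiers through GENCODE M21, and each was found once among the 54532 genes of the table. The study set c-kit+ BM cells of *Gadd45g*-deficient mice with myeloproliferative neoplasm (MPN) against those of Ctrl mice, and the data examined here are the Ctrl library alone. Ctrl mice were wild type on the C57BL/6 strain, and the cells were sorted by flow cytometry from bone marrow as negative for lineage markers and Sca-1 and positive for c-kit, the receptor for stem cell factor. The RNA-seq methods of the paper name c-kit alone for this sort. The age, the sex and the number of mice in the library are not given in the sources used here. With 1 library there are no replicates, so no test between groups was made, and the order of the genes rests on counting error only.

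STAT proteins wait in the cytoplasm until a cytokine receptor and its bound JAK kinase place a phosphate on a tyrosine near their end. Phosphorylated STAT proteins pair through their SH2 domains, enter the nucleus and bind DNA, most often at palindromic GAS sites. In the marrow STAT5 serves the receptors for erythropoietin, IL-3 and GM-CSF, STAT3 serves G-CSF and the IL-6 family, and this signalling is constitutively active in MPN cells with mutated *JAK2*. These events are changes of protein state, which an mRNA level does not measure.

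The authors deposited levels in FPKM, fragments on a gene scaled to the length of its exons and to the depth of the library. Whole fragment numbers could be read back for 96.4% of the genes above 0 and for all 6 STAT genes, and a 95% Wilson interval was computed from them. All intervals cover counting error only, since PCR copies are not independent and the spread between mice is unknown. The defining markers of the sort were mixed in this bulk library. *Kit* itself had 7.17 FPKM, the 5 progenitor markers ran from 5.22 FPKM for *Cd34* to 781 FPKM for *Elane*, and 0 of 5 HSC markers reached 1 FPKM. All 7 mature neutrophil markers, from 109 to 26677 FPKM, and all 5 erythroid markers, from 471 to 25466 FPKM, were above *Kit*. So were all 5 B cell markers, from 17.1 to 173 FPKM, and the 5 macrophage markers ran from 6.29 to 51.5 FPKM. A gate negative for lineage markers, as given above, would leave such cells out, whereas the paper names c-kit alone. The levels below are therefore those of the whole sorted pool, in which more cells of a type and more RNA per cell cannot be told apart.

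All 6 STAT genes reached 1 FPKM, a level reached by 46.8% of protein-coding genes and 22.2% of all genes in the table. Their median was 16.1 FPKM, beside a median of 8.66 FPKM over the 10290 protein-coding genes at or above 1 FPKM. *Stat6*, the factor of IL-4 and IL-13 signals, had the highest level with 51.3 FPKM from 3567 fragments (interval, 49.7 to 53.1). *Stat5b*, which carries growth hormone signals in other tissues and hematopoietic cytokine signals in marrow, had 32.3 FPKM from 2824 fragments (interval, 31.1 to 33.5). *Stat3*, the factor of IL-6 and G-CSF signals, had 21.2 FPKM from 3186 fragments (interval, 20.5 to 21.9).

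The other 3 members were lower. *Stat2*, which acts with IRF9 downstream of type I interferon, had 11.1 FPKM from 1037 fragments (interval, 10.4 to 11.8). *Stat5a*, which carries prolactin signals beside those of hematopoietic cytokines, had 8.71 FPKM from 981 fragments (interval, 8.18 to 9.28). *Stat4*, the factor of IL-12 signals in T and NK cells, had 3.89 FPKM from 238 fragments (interval, 3.43 to 4.42). From the highest to the lowest the levels in FPKM spanned 13.2-fold (95% interval of the ratio, 11.6 to 15.03). The span was 11.8-fold with the longest transcript as length and 9.75-fold on exon bases that no other gene shares. In FPKM 4 of the 6 reached 10, where 21.2% of protein-coding genes and 9.37% of all genes did. *Stat6* stood above 95.6% of all protein-coding genes and *Stat4* above 65.2% of them.

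**Figure D1:**
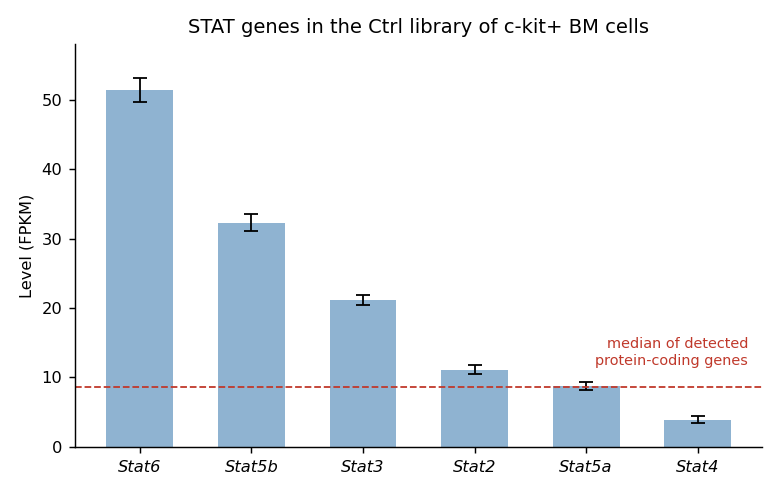
Level of each STAT gene in FPKM (bars), with the 95% Wilson interval of its fragment count (error bars, counting error only); the dashed line is the median of detected protein-coding genes, 8.66 FPKM. The bars fall from 51.3 FPKM for *Stat6* to 3.89 FPKM for *Stat4*, and the *Stat5a* bar ends at the dashed line.

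No neighbouring intervals in this order overlapped. The closest neighbours were *Stat2* and *Stat5a*, with a ratio of 1.27 in FPKM (95% interval, 1.17 to 1.39), and the widest step in FPKM was from *Stat5a* to *Stat4*, with a ratio of 2.24 (interval, 1.94 to 2.58). On exon bases that no other gene shares that ratio was 1.66, and the widest step was then from *Stat3* to *Stat2*, with 1.93. *Stat6* was 1.59 times *Stat5b*, *Stat5b* was 1.52 times *Stat3*, and *Stat3* was 1.91 times *Stat2*. With 1 library it cannot be said which of these steps exceed the spread between mice, and no other gene's pattern across samples could be set beside theirs.

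The order depended in part on the length by which fragments were divided. FPKM here used the bases covered by any exon of a gene, which are 9527 for *Stat3*, whose 14 annotated transcripts include 9 with a retained intron, while its longest transcript has 6042 bases. For *Stat5a* the exons cover 7133 bases and the longest transcript 3958. *Stat6* kept the first place and *Stat4* the last with fragments not divided by length, with the longest transcript and with the longest coding sequence. The order of *Stat5b* and *Stat3* turned round without division (ratio 0.886) and with the coding length (ratio 0.868), and was near even with the longest transcript (ratio 1.03). That of *Stat2* and *Stat5a* turned round with the longest transcript (ratio 0.952) and the coding length (ratio 0.913). On all 4 scales *Stat5b* and *Stat3* were both above *Stat2* and *Stat5a*.

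**Figure D2:**
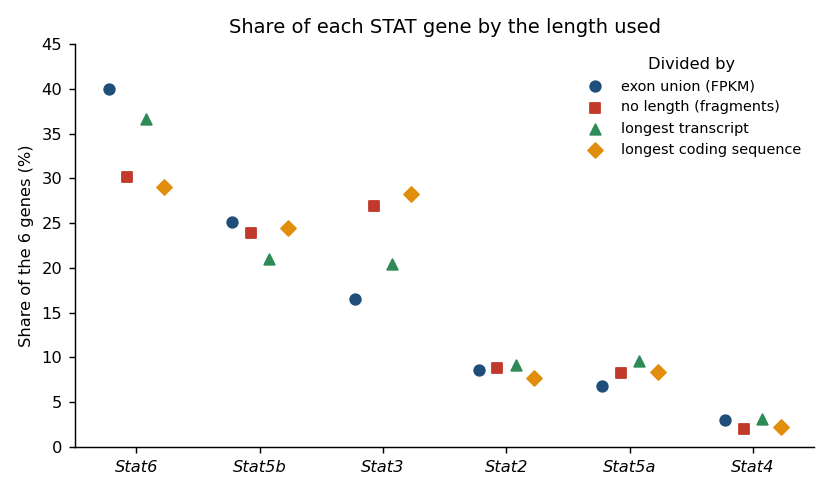
Share of each gene in the sum over the 6 STAT genes (percent) with fragments divided by the exon union, by no length, by the longest transcript or by the longest coding sequence. *Stat6* has the highest share on every scale, from 29.1% to 39.9%, and the share of *Stat3* runs from 16.5% to 28.2%.

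In FPKM *Stat6* held 39.9% of the summed level of the 6 genes, *Stat5b* 25.1%, *Stat3* 16.5%, *Stat2* 8.63%, *Stat5a* 6.78% and *Stat4* 3.03%. Both *Stat5* genes together held 31.9%. The 6 genes had 11833 fragments in all, or 0.0691% of the 17113323 fragments read back over all genes. That total includes values rounded from multiples that were not whole, and it is above the 15783891 fragments that the FPKM scale implies.

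The genes lie in 3 places of the genome (GRCm38). *Stat5b* (ENSMUSG00000020919, reverse strand, chr11:100780731-100850724), *Stat5a* (ENSMUSG00000004043, forward strand, chr11:100859351-100885169) and *Stat3* (ENSMUSG00000004040, reverse strand, chr11:100885098-100939540) follow each other on chromosome 11 with 0 protein-coding genes between them. *Stat5b* and *Stat5a* start back to back with 8626 bases between the genes, and the ends of *Stat5a* and *Stat3* overlap by 72 bases on opposite strands. These neighbours did not share a level, since *Stat5a*, in the middle, was the lowest of the 3 and below *Stat5b* on every scale. *Stat6* (ENSMUSG00000002147, chr10:127642986-127660957) and *Stat2* (ENSMUSG00000040033, chr10:128270559-128292849) are both on the forward strand of chromosome 10, with 26 protein-coding genes between them. *Stat4* (ENSMUSG00000062939) is on the forward strand at chr1:51987148-52107189.

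*Stat5a* and *Stat5b* are near-copies, and fragments from such genes can be lost or misplaced in mapping. The coding sequences of the transcripts that GENCODE tags as principal, 2379 and 2358 bases without the stop codon, were identical at 90.7% of aligned bases, whereas the other 14 pairs of members ranged from 58.2% to 65.5%. With the longest annotated coding sequence of *Stat5a*, 2391 bases with another end, the identity was 90.8%. The longest stretch without any difference was 324 bases, coding bases 571 to 894, which span exons 7 to 9 of *Stat5a* and exons 6 to 8 of *Stat5b*. The stretch before it, 129 bases from 441 to 569, was also free of differences, so that across 454 bases the genes differ at a single position. The 100 coding bases around that position, 520 to 619, lie in exons 6 and 7 of *Stat5a* and exons 5 and 6 of *Stat5b*. They are shown because they hold the only base that separates the genes across those 454. The capital marks the difference, C570A, with the base of *Stat5a* first and positions counted from 1 at the first coding base. On the genome with its intron the stretch covers chr11:100865475-100874071 in *Stat5a* and chr11:100798653-100801437 in *Stat5b*.
Stat5a: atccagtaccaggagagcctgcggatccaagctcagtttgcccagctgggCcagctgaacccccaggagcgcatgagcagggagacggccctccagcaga
Stat5b: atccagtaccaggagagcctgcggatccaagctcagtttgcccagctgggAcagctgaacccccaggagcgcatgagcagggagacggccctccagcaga

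The ends of the coding sequences were the least alike. The last 60 coding bases lie in the last exon of each principal transcript, exon 20 of *Stat5a* (chr11:100883934-100883993) and exon 19 of *Stat5b* (chr11:100783099-100783158), and encode the end of the transactivation domain. They are shown as a part in which the genes differ. Over the last 100-base window of *Stat5a*, 55% of bases had an identical partner in *Stat5b*.
Stat5a: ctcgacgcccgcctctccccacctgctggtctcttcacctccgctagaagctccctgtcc
Stat5b: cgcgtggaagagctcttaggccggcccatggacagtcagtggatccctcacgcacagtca

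**Figure D3:**
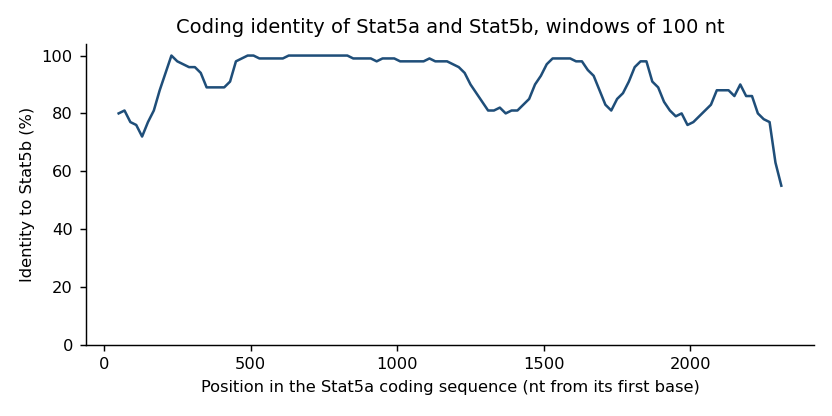
Identity of *Stat5a* to *Stat5b* (percent of bases in windows of 100 bases, moved by 20) along the *Stat5a* coding sequence, where a base without a partner counts as different. The line is at 96% or more for windows centred from base 450 to base 1210, falls to 80% near base 1370, and ends at 55% in the last window.

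Of the 114 windows along the *Stat5a* coding sequence, 55 had an identity of 95% or more and 14 were identical. Counted over the principal transcripts, 6.99% of the 100-base windows of the *Stat5a* transcript occur exactly in *Stat5b*, and 5.18% of those of *Stat5b* occur in *Stat5a*. For windows of 50 bases the values were 16.4% and 11.8%, and the former includes windows shared with *Stat3*. The read length of this library and the treatment of fragments with several matches are not given in the sources used here. *Stat5b* was 3.71 times *Stat5a* in FPKM (95% interval, 3.45 to 3.99), 2.88 times without division by length, 2.19 times with the longest transcript and 2.92 times with the longest coding sequence. The direction held on all 4 scales, while the size changed by over 1.5 times with the longest transcript.

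The receptors that use STAT5 were present at very different levels. All 9 such genes examined reached 1 FPKM. *Csf2ra*, the GM-CSF receptor alpha chain, led with 127 FPKM. *Epor*, the erythropoietin receptor, had 49.9 FPKM (interval, 47.4 to 52.4), and *Csf2rb*, the beta chain shared by IL-3, GM-CSF and IL-5, had 34.9 FPKM (interval, 33.8 to 35.9). *Il5ra*, the IL-5 receptor alpha chain, was lowest with 3.30 FPKM (interval, 2.86 to 3.81). *Jak2*, the kinase of the erythropoietin receptor and of the shared beta chain, had 31.7 FPKM (interval, 30.5 to 33.0), which overlapped the interval of *Stat5b*.

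The 5 STAT5 target genes divided into high and low. *Pim1*, a survival kinase, had 119 FPKM, *Osm*, the cytokine oncostatin M, 85.3 FPKM and *Bcl2l1*, which encodes BCL-XL, 65.0 FPKM. The feedback inhibitors stood far lower, with 1.34 FPKM for *Cish* from 136 fragments (interval, 1.13 to 1.59) and 0.319 FPKM for *Socs2* from 48 fragments (interval, 0.241 to 0.423). Both have long exon unions, of 6419 and 9531 bases. With the longest transcript in place of the union *Cish* had 1.83 FPKM and *Socs2* 0.717 FPKM, still far below *Osm* and *Bcl2l1*, whose exon unions are 2272 and 4586 bases long.

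*Stat6* had the highest level of the members, yet the receptor genes upstream of it were moderate. *Il4ra*, the IL-4 receptor alpha chain, had 19.3 FPKM (interval, 18.5 to 20.3) and *Il13ra1* 10.3 FPKM (interval, 9.55 to 11.2), both below *Stat6*. *Il2rg*, the common gamma chain that completes the IL-4 receptor of blood cells, had 15.8 FPKM. Of the 4 STAT6 targets, which are known from alternatively activated macrophages, 2 reached 1 FPKM. *Arg1*, arginase 1, had 0.341 FPKM from 12 fragments and *Retnla* 0.740 FPKM from 7 fragments, and *Mrc1*, the mannose receptor, had 7.37 FPKM. *Chil3* had 2058 FPKM from 53024 fragments and was the 19th highest gene of the library. It encodes the chitinase-like protein Ym1, which cells of the neutrophil lineage also make, and the neutrophil markers *Ngp* and *Camp* stood at 8470 and 3872 FPKM in the same library. The part of these cells in the *Chil3* level was not tested.

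For *Stat3*, all 6 receptor genes chosen reached 1 FPKM. *Csf3r*, the G-CSF receptor, had 212 FPKM (interval, 208 to 216), far above *Stat3*. *Il6st*, which encodes the gp130 chain of the IL-6 family, had 6.02 FPKM, *Il6ra* 18.9 FPKM, *Il10ra* 24.4 FPKM and *Lifr* 1.01 FPKM from 171 fragments. The interval of *Lifr*, 0.866 to 1.17, reached below 1 FPKM. All 4 STAT3 targets were above 10 FPKM. The transcription factor gene *Junb* had 306 FPKM, *Mcl1*, a survival gene of the BCL2 family, 248 FPKM, the feedback inhibitor *Socs3* 18.7 FPKM and *Bcl3* 13.1 FPKM. None of these targets is read by STAT3 alone.

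*Stat2* stood below its receptors and its partner. *Ifnar1* and *Ifnar2*, the type I interferon receptor chains, had 20.04 and 24.5 FPKM. *Irf9*, the DNA-binding partner that joins STAT2 in ISGF3, had 19.9 FPKM (interval, 18.9 to 20.8), above *Stat2* without overlap. All 7 genes chosen as ISGF3 targets reached 1 FPKM. *Isg15*, a ubiquitin-like protein, led with 209 FPKM, followed by *Irf7* with 29.8 and *Oas1a* with 20.8 FPKM, and the lowest was *Mx1* with 4.34 FPKM.

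*Stat4* came with the lowest receptors. *Il12rb1* had 0.849 FPKM from 55 fragments and *Il12rb2* 0.584 FPKM from 35 fragments, so that 0 of the 2 IL-12 receptor genes reached 1 FPKM. With the longest transcript as length *Il12rb1* was just above that level, at 1.21 FPKM, and *Il12rb2* below it, at 0.740 FPKM. The 3 STAT4 targets were also low, with 4.37 FPKM for *Il18r1*, 1.86 FPKM for *Ifng*, the gene of interferon gamma, and 1.55 FPKM for *Tbx21*, the T helper 1 factor T-bet. Markers of the cells in which *Stat4* is best known were present in the same range. All 6 T cell markers reached 1 FPKM, from 2.62 FPKM for *Cd3e* to 11.1 FPKM for *Lck*, and all 6 NK cell markers, from 1.31 FPKM for *Eomes* to 7.998 FPKM for *Gzma*. Their part in the *Stat4* level was not tested.

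The *Stat4* value carries a further limit of annotation. Of its 3872 exon bases, 1033, or 26.7%, are also exons of *Gm28177*, a transcript gene on the same strand, which is listed at 0 FPKM. No fragment was counted for *Gm28177*, so none on the shared bases was counted for both genes. Whether such fragments were counted for *Stat4* alone or left out is not given in the sources used here. If they were left out, the 238 fragments come from the other 2839 bases, on which the level would be 5.31 FPKM. That is outside the counting interval of the FPKM value. *Stat4* stayed below *Stat5a*. For the other 5 members at most 1.01% of exon bases are shared with another gene.

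**Figure D4:**
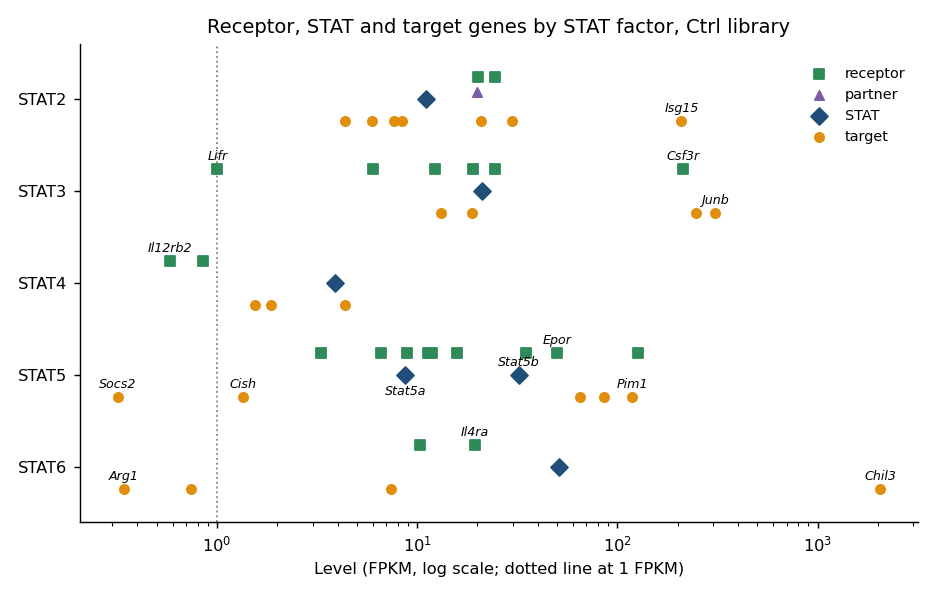
Levels in FPKM (log scale) of receptor genes, the STAT2 partner *Irf9*, STAT genes and target genes, by STAT factor, in the Ctrl library; each point is 1 gene and the dotted line is at 1 FPKM. The IL-12 receptor genes lie left of the line, *Csf3r* is the highest receptor with 212 FPKM, and the STAT6 targets run from 0.341 FPKM for *Arg1* to 2058 FPKM for *Chil3*.

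Upstream of all members, none of the 4 JAK kinase genes fell under 1 FPKM, and they centred on 22.9 FPKM (median). *Jak1*, used by the interferon, gp130 and gamma chain receptors, had 59.1 FPKM (interval, 57.7 to 60.6). *Tyk2*, a partner kinase at the interferon and IL-12 receptors, had 14.1 FPKM, and *Jak3*, which binds the common gamma chain, 9.64 FPKM.

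The pathway's restraints were represented by 16 genes, of which 15 were detected and whose median was 8.14 FPKM. The 3 tyrosine phosphatase genes were the highest group, led by *Ptpn6*, the gene of SHP-1, with 167 FPKM (interval, 163 to 170) and followed by *Ptpn1* with 39.9 FPKM and *Ptpn2* with 11.9 FPKM. *Sh2b3*, whose product LNK holds back JAK2, had 31.5 FPKM. The 4 PIAS genes, whose products bind STAT proteins in the nucleus, lay close together between 4.10 and 10.7 FPKM. The 8 genes of the SOCS family, of which *Cish* and *Socs1* to *Socs3* are the classical STAT-induced feedback inhibitors, had the lowest median, 2.72 FPKM, and *Socs3* was the highest of them. The coactivator genes *Ep300* and *Crebbp* had 16.7 and 5.32 FPKM.

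The level of the STAT genes was set beside 3 other families that include factors held back until a signal arrives, though not every member is such a factor. The median of the 6 STAT genes, 16.1 FPKM, was near that of the 5 REL genes (NF-κB), 16.2 FPKM, below that of 8 IRF genes, 23.2 FPKM, and above that of the 8 SMAD genes, 4.595 FPKM. The STAT, REL and IRF genes examined were all at 1 FPKM or more, as were 6 of 8 SMAD genes. *Irf8*, needed for monocytes and dendritic cells, led the IRF genes with 46.5 FPKM and *Rela* the REL genes with 33.5 FPKM, both below *Stat6*. With the longest transcript as length *Irf8*, at 94.6 FPKM, was above *Stat6*, at 59.9 FPKM. *Smad9* is listed at 0, where 3 fragments would give 0.0354 FPKM. Without division by length the STAT median moved to the highest place, with 1930.5 fragments against 1671.5 for the IRF and 1622 for the REL genes. The IRF median stayed above that of the REL genes, and the SMAD genes stayed below at 425. The fragment numbers of *Rela* and *Nfkb2* were rounded from values that were not whole. These are counts and medians in 1 library, and no difference between families was tested.

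**Figure D5:**
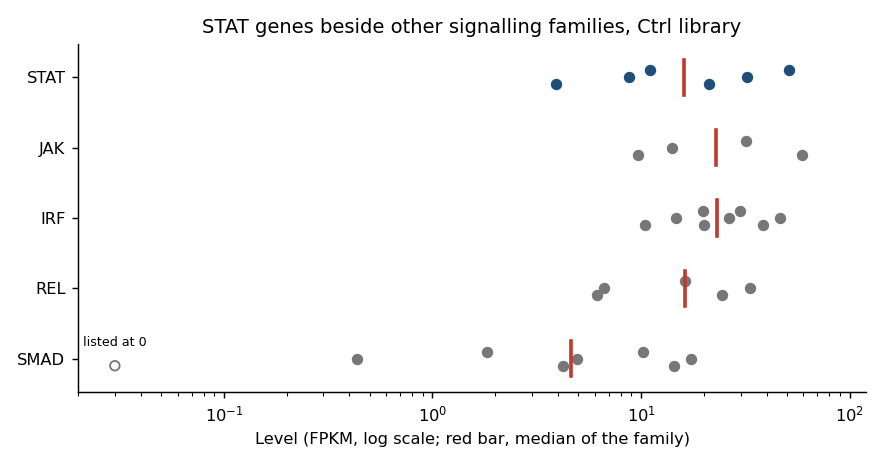
Levels in FPKM (log scale) of the STAT, JAK, IRF, REL and SMAD genes in the Ctrl library, 1 point per gene, with the median of each family as a red bar and a gene listed at 0 as an open circle at the left edge. The STAT median, 16.1 FPKM, lies between those of the SMAD genes (4.595 FPKM) and the JAK genes (22.9 FPKM).

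The letters TTCNNNGAA are a form of the GAS motif that many STAT dimers bind, and the pattern reads the same on both strands. It was looked for in the RefSeq promoters of GRCm38.p6, from 250 bases before to 50 after each start. The same letters were used for all targets, also for the 4 STAT6 and 7 ISGF3 targets, and no other spacing or site was searched. The letters were in 8.30% of all 32851 promoters and at 9.55% of the 27025 genes. Of the 23 target genes, 18 had an entry, all but *Arg1*, *Mx1*, *Osm*, *Socs2* and *Usp18*, and the letters were found at 6 of the 18, namely *Cish*, *Socs3*, *Chil3*, *Oas1a*, *Il18r1* and *Ifng*. These genes ranged from 1.34 to 2058 FPKM, so that a match went with low and high levels alike. The 9 promoters of the STAT genes themselves held 0 matches. The matches of *Cish*, *Socs3* and *Chil3* are shown, with GAS letters in capitals, as those beside the lowest, a middle and the highest level of the 6. That of *Cish* holds 2 copies with 2 bases between them, at the start of the transcript (forward strand, chr9:107296649-107296688), that of *Socs3* is on the reverse strand at chr11:117969502-117969530, and that of *Chil3* on the reverse strand at chr3:106167718-106167746. A match of letters is not a measured binding site, and it does not name the factor that would bind.
Cish: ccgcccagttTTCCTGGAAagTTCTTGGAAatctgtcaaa
Socs3: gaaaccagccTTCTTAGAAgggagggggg
Chil3: aaatacccacTTCTTAGAAacatagctat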

How the data were processed

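RNA of sorted c-kit+ BM cells of Ctrl mice was extracted with TRIzol and sequenced on an Illumina HiSeq instrument (1 library). The deposited values are FPKM. The submitters' processing notes name HISAT2 2.0.5, featureCounts 1.5.0-p3 and the build mm10, and the annotation, strandedness and read length are not given in the sources used here. Names, exon lengths and coordinates came from GENCODE M21 (GRCm38, the same build as mm10), which held 54495 of the 54532 gene identifiers. FPKM times exon length was a whole multiple of 1 step, within 0.01, for 20546 of 21313 genes above 0 (99.9% outside chromosomes 17 to 19 and 64.6% on them). The step corresponds to 15783891 fragments and the rounded multiples sum to 17113323. A gene whose multiple was not whole was given no interval. The recovery was tested on simulated data in which wrong lengths were scattered at random and only genes with right lengths were scored. That test did not cover the genes without whole multiples on chromosomes 17 to 19, nor the excess of the summed multiples. Intervals of ratios used the counting error of both genes on a log scale. Detection was set at 1 FPKM. Coding sequences of the transcripts tagged as principal, a choice made after seeing the data, were aligned pairwise with Biopython 1.88. All 6 members, and of each list the highest, the lowest and genes paired with a member, were named by rule, and other listed genes after their values were seen. Some genes of the lists are not reported here, and counts and medians leave them out. The members and lists were chosen with earlier results of these data known. The order by STAT factor was set after the values were seen. Scripts ran under Python 3.11.15 with scipy 1.17.1, numpy 2.4.6 and pandas 2.3.3, and plots were drawn in matplotlib 3.10.9.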

Additional observations from a re-analysis of the deposited data

How the results depend on the processing

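No paired analysis was possible because 1 library has no partner. The median of the STAT genes, 16.1 FPKM, was 17.6 without the 10 most abundant genes in the total, 16.5 without mitochondrial genes and 37.6 as TPM, and each of these factors is common to all genes. With the longest coding sequence as length, 2 of the 6 genes kept their place in the order, and 4 did under the other scales. The ratio of *Stat5b* to *Stat5a*, 3.71, was 2.88 in fragments, 2.19 with the longest transcript and 2.92 with the coding sequence. That of *Stat5b* to *Stat3* turned to 0.886 in fragments and 0.868 with the coding sequence, and that of *Stat2* to *Stat5a* to 0.952 with the longest transcript and 0.913 with the coding sequence, since the lengths differ between the genes by construction. At minimums of 0.1 FPKM and of 10 fragments 6 STAT genes were detected, and the share of all genes there was not computed. At 10 FPKM 4 were detected, beside 21.2% of protein-coding genes and 9.37% of all genes. The level of *Stat4* on exon bases that no other gene shares, 5.31 FPKM, and the span and the widest step there were added after seeing the data. Among the targets depth limits *Retnla* most, with 7 fragments.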
